A study of Mus musculus with 4 samples.

Results

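Kcnj8, Abcc9, Kcnma1, Kcnmb1, Cacna1c, Ryr2, Trpc6, Piezo1 and Piezo2 encode potassium channels, calcium channels and mechanosensitive channels of the vessel wall. They were chosen by name, as the rows of the count matrices with these symbols, and are 9 of the 32287 genes listed. Their levels were compared in aortic smooth muscle cells of WT and KO mice, and in cells with many and with few transcripts of Rgs5. WT were Myh11-CreERT2.mT/mG mice, also called GFPiSMC. KO, also called Tgfbr1/2iSMCKO, carried the same transgenes together with the floxed alleles Tgfbr1f/f and Tgfbr2f/f. From these alleles Cre removes the floxed part of both TGF-beta receptor genes. All mice were C57BL/6J, 12 weeks old, and had been given tamoxifen for 5 days. Cre was driven by the promoter of the smooth muscle myosin gene Myh11, and the mT/mG reporter turns green in cells where Cre has acted, so both genotypes carried Cre, reporter and tamoxifen. Single, viable, green cells of the ascending aorta and aortic arch were sequenced as 2 libraries per genotype. The labels give tamoxifen at 1 or 2 mg per day from 4 or 11 weeks of age without naming the libraries, so the course cannot be told apart from genotype. They do not say how many mice a library holds, and p-values measure the spread between these libraries.

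Contraction of arterial smooth muscle follows the calcium that enters through voltage-gated L-type channels, whose pore is encoded by Cacna1c. The sarcoplasmic reticulum adds calcium through ryanodine receptors such as Ryr2, whose brief local releases open the large-conductance potassium channels of Kcnma1 and its beta subunit Kcnmb1, and these in turn limit contraction. Channels closed by ATP, made of the pore Kir6.1 (Kcnj8) and the sulfonylurea receptor SUR2 (Abcc9), hyperpolarise the muscle and dilate the vessel. Piezo1 and Piezo2 open when the membrane is stretched, and Trpc6 is a cation channel opened by diacylglycerol.

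After filtering there were 2429 (WT 1), 3265 (WT 2), 4252 (KO 1) and 3522 (KO 2) cells, with medians of 13898 to 15383 UMIs per cell, a UMI being 1 counted transcript molecule. Totals were 35255748 to 59203071 UMIs per library, and any pair of libraries shared 3 to 6 cell barcodes. The 9 smooth muscle markers checked summed to 49068 to 56493 CPM, the UMI count scaled to a common library total, while the blood cell list summed to at most 0.373 CPM. The 11 pericyte markers summed to 550 to 963 CPM, mostly from Cspg4 and Mcam, and 3 of them, Higd1b, Vtn and Atp13a5, had no UMI. Transcripts of the targeted genes were present in KO: Tgfbr1 stood at 80.8 and 82.3 CPM in the WT libraries and 73.3 and 76.1 CPM in the KO libraries, and Tgfbr2 at 51.6 and 45.1 against 46.5 and 47.3 CPM. 3′ tags outside the deleted part check nothing, and the labels do not name that part.

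In KO cells Kcnj8 rose, and Kcnmb1, Ryr2, Cacna1c and Piezo2 fell, while Abcc9, Kcnma1 and Piezo1 did not pass the test and Trpc6 had at most 1 UMI in a library. The test was edgeR's quasi-likelihood test on UMI sums of the 4 libraries, and a gene was called at an adjusted p under 0.05. By this rule 5 of the 8 tested members were called, 1 higher and 4 lower. Among all 14474 genes tested, 20.3% were called, 9.17% higher and 11.1% lower. Without WT 1 the calls over all genes went from 2938 to 1844. Both KO libraries lay on one side of both WT libraries for 6 of the 8 members and for 63.5% of the tested genes.

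Markers of other cell types moved with genotype too. The pericyte list summed to 963 and 870 CPM in WT 1 and WT 2 and to 576 and 550 in KO 1 and KO 2, with 3 of 7 tested markers called lower and 1 higher. The fibroblast list went from 608 and 706 to 428 and 498 CPM, with 3 of 9 lower and 2 higher, and the Schwann cell and neuron list from 738 and 729 to 495 and 534 CPM, with 3 of 6 lower and 1 higher. The pericyte, fibroblast and Schwann cell and neuron sums were thus lower in both KO libraries. Single genes weighed heavily: Mfap5 gave 75.4% of the fibroblast list's CPM, and Ncam1 75.5% of the Schwann cell and neuron list's. Other fibroblast markers went against their sum. Lum went from 1.20 and 0.894 to 10.8 and 18.6 CPM, and Dpt from 0.258 and 0.0406 to 1.43 and 2.29 CPM. The endothelial list went from 56.9 and 58.0 to 50.9 and 48.5 CPM, with 6 of 9 higher and 2 lower. The cardiomyocyte list went from 19.4 and 26.6 to 59.2 and 56.0 CPM, with 2 of 6 higher. Its sum rose largely with Actc1, an actin gene, from 0.487 and 0.609 to 29.9 and 26.1 CPM. Myl4 stood at 12.2 and 11.9 against 11.1 and 11.6 CPM. The macrophage list stood at 10.2 CPM in KO 1 and at 0.447 to 0.803 CPM in the other libraries. Of the 9 smooth muscle markers, 3 were higher and 1 lower. The part of these lists in the channel gene differences was not tested.

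**Figure D1:**
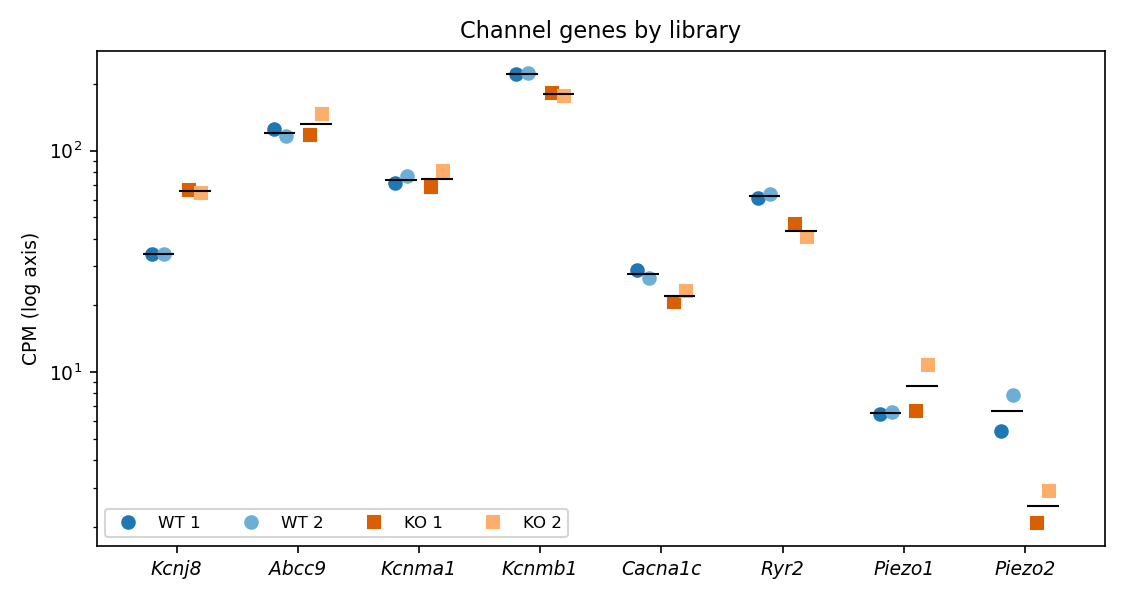
CPM of the 8 tested channel genes (log axis) in the 2 WT (circles) and 2 KO libraries (squares), with a line at each genotype's mean. Kcnj8 is higher in both KO libraries, at 66.7 and 64.2 CPM against 34.3 and 34.0 CPM in WT, and Piezo2 is lower in both, at 2.07 and 2.90 against 5.42 and 7.88 CPM.

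Kcnj8, the pore of the ATP-sensitive channel, stood at 34.3 CPM in WT 1, 34.0 in WT 2, 66.7 in KO 1 and 64.2 in KO 2. The KO libraries were close to each other and well above WT, and the mean rose from 34.1 ± 0.147 to 65.5 ± 1.75 CPM (SD, n = 2; log2 difference 0.94, SE 0.07, adjusted p = 8.4e-05). Abcc9, its regulatory subunit, stood at 125.0 and 116 CPM in the WT libraries and 118 and 147 CPM in the KO libraries. KO 2 was high, KO 1 lay between the WT libraries, and the difference was 0.13 on the log2 scale (SE 0.10, adjusted p = 0.409). KO 2 decided that value: it was 0.28 without KO 1 (adjusted p = 0.0460) and -0.03 without KO 2 (adjusted p = 0.828). Per UMI of Kcnj8 the libraries held 3.65 and 3.41 UMIs of Abcc9 in WT, and 1.76 and 2.28 in KO. The ratios of the genotypes did not overlap, with a two-sided exact permutation p of 0.333, the smallest that 2 against 2 libraries allow.

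Both genes lie on the minus strand of chromosome 6 on GRCm38, Kcnj8 at 142564837 to 142571614 and Abcc9 at 142587862 to 142702315, with a gap of 16.2 kb and no annotated gene between them. The 250 bases before their RefSeq start sites (GRCm38.p6) are shown with those of Kcnmb1, since Kcnj8 was called higher in KO and its neighbour was not called, and Kcnmb1 was called lower. Capitals mark matches, on either strand, to CAGAC, a SMAD-binding motif, and TGGGAA, the core bound by the Notch factor RBPJ; the serum response factor's CArG box was searched too.

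Kcnj8, chr6:142571615-142571864, minus strand: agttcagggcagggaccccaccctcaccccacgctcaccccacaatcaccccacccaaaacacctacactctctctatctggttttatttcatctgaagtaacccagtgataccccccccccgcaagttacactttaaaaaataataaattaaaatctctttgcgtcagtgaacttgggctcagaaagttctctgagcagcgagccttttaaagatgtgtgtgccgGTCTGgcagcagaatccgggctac
Abcc9, chr6:142702275-142702524, minus strand: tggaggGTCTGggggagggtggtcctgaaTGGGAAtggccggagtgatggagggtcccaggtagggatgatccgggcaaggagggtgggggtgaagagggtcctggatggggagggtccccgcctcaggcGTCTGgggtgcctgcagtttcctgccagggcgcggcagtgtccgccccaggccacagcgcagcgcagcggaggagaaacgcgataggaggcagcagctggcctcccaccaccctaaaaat
Kcnmb1, chr11:33962763-33963012, plus strand: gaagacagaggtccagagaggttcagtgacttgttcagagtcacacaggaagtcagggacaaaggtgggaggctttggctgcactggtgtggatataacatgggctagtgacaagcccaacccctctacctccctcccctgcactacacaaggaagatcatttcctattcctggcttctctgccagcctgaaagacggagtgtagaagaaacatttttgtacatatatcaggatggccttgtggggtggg

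Kcnj8 held 1 CAGAC match, 20 bases before the start. Abcc9 held 2, at 240 and 116 bases, and 1 TGGGAA match at 216 bases. Kcnmb1 held none of the motifs. Of 32851 promoter windows of this length, 42.2% held CAGAC, 21.6% TGGGAA and 1.47% a CArG box. RefSeq gave 10 windows for 8 of the 9 members. CAGAC stood in 6 of the 10, and a CArG box in 1, that of Trpc6. A match is a description of the letters and not a bound site.

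Kcnmb1, the beta subunit that makes the large-conductance potassium channel more sensitive to calcium, stood at 221 and 224 CPM in the WT libraries and 183 and 177 CPM in the KO libraries. The genotypes did not overlap, and the gene fell by 0.31 on the log2 scale (SE 0.06, adjusted p = 0.00969). Kcnma1, the pore it attaches to, stood at 71.4 and 76.8 CPM in the WT libraries and 68.3 and 80.7 CPM in the KO libraries. The KO libraries lay on both sides of WT (0.01, SE 0.09, adjusted p = 0.959). Per UMI of Kcnma1 there were 3.10 and 2.92 UMIs of Kcnmb1 in WT, and 2.68 and 2.19 in KO (two-sided exact permutation p = 0.333). Kcnma1 spans chromosome 14 from 23289431 to 24014491, and Kcnmb1 chromosome 11 from 33963013 to 33973641, where Kcnip1 on the opposite strand had 11 UMIs in all.

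Ryr2, the calcium release channel of the store, stood at 61.2 and 63.8 CPM in the WT libraries and 46.6 and 40.5 CPM in the KO libraries. Every KO value was below every WT value, and the gene fell by 0.52 on the log2 scale (SE 0.08, adjusted p = 0.00393). Cacna1c, the pore of the L-type channel, stood at 29.0 and 26.7 CPM in the WT libraries and 20.7 and 23.2 CPM in the KO libraries. Its difference was smaller (-0.34, SE 0.09, adjusted p = 0.0293) and was not called without WT 1 (adjusted p = 0.144) or without KO 1 (adjusted p = 0.120). Cacna1c covers chromosome 6 from 118587240 to 119196418, overlapping Dcp1b, an mRNA decapping gene on the opposite strand. Dcp1b differed in the same direction, from 15.01 ± 0.196 to 11.7 ± 1.08 CPM (SD, n = 2; log2 difference -0.36, adjusted p = 0.0350). Whether the counting used strand is not given in the sources used here, so the Cacna1c value is uncertain to that extent. Ryr2 covers chromosome 13 from 11553102 to 12106945.

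Piezo2, the stretch-activated channel best known from sensory neurons, stood at 5.42 and 7.88 CPM in the WT libraries and 2.07 and 2.90 CPM in the KO libraries. Both KO libraries were below both WT libraries, and the log2 difference was -1.44 (SE 0.23, adjusted p = 0.00367), the largest among the 8 tested members in size. These values rest on 189 and 388 UMIs in WT and 123 and 149 in KO. Piezo1, its relative in endothelium and many other tissues, stood at 6.45 and 6.62 CPM in the WT libraries and 6.63 and 10.7 CPM in the KO libraries. Only KO 2 stood apart, and the difference was 0.40 (SE 0.21, adjusted p = 0.211). It was 0.02 without KO 2 (adjusted p = 0.945) and 0.71 without KO 1 (adjusted p = 0.00687). Piezo1 covers chromosome 8 from 122481698 to 122551329 and overlaps Ctu2, a tRNA modification gene on the opposite strand, at 16.04 ± 1.28 CPM in WT and 16.6 ± 0.153 CPM in KO.

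Trpc6 had 1 UMI in WT 2, 1 in KO 1 and none in the other libraries, and it was not tested. In cells thinned to 5000 UMIs it was found in 0 of 12790 cells, which allows a share of up to 0.0235% of cells with a UMI at this depth. Thinning draws the same number of UMIs from each cell, and leaves out 678 kept cells that had fewer. Intervals and limits of this kind cover counting error only.

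After thinning, Kcnj8 was seen in 13.2% and 15.1% of WT cells and in 26.5% and 24.0% of KO cells, 14.2 ± 1.36% against 25.3 ± 1.78% (SD, n = 2). Its 95% exact binomial intervals ran from 11.8% to 14.7% in WT 1 and from 13.9% to 16.5% in WT 2. More cells had a Kcnj8 UMI in both KO libraries than in either WT library. Unthinned, its shares were 32.1 ± 0.918% and 47.3 ± 1.81%. Kcnmb1 was seen in 66.3 ± 0.546% of WT and 57.6 ± 0.460% of KO cells, and unthinned in 89.8 ± 1.54% and 85.6 ± 0.695%. Ryr2 was seen in 24.9 ± 0.458% and 18.7 ± 1.55%, and unthinned in 52.1 ± 1.68% and 40.0 ± 2.18%. These shares moved in the direction of the sums. Cacna1c was seen in 13.3 ± 1.19% and 9.80 ± 0.482%, and unthinned in 31.3 ± 0.106% and 24.9 ± 1.76%. Piezo2 was seen in 2.88 ± 0.341% and 1.14 ± 0.162%, and unthinned in 6.47 ± 1.76% and 2.39 ± 0.554%. In each of these 5 genes the genotypes did not overlap, with a two-sided exact permutation p of 0.333, the smallest possible. Piezo1, which was not called, did not overlap at 5000 UMIs either, but did unthinned. How many of all genes lack overlap in this measure was not computed, and on the sums it was 63.5%.

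Abcc9 was seen in 40.9 ± 1.36% of thinned WT cells and 44.6 ± 4.74% of KO cells, and Kcnma1 in 29.3 ± 3.07% and 29.6 ± 2.80%, with overlap between genotypes in both. Unthinned shares were 67.7 ± 0.453% and 72.2 ± 4.86% for Abcc9, where the genotypes did not overlap, nor did they at 10000 UMIs. For Kcnma1 they were 57.6 ± 3.68% and 57.5 ± 4.00%, with overlap. Piezo1 was seen in 3.12 ± 0.233% and 4.00 ± 0.967%, and unthinned in 8.11 ± 0.352% and 10.5 ± 3.09%. In each library 331 to 453 kept cells had UMIs of at least 3 genes of another cell type's list. No cells known to lack these channels were set apart, so the share of positive cells that free RNA gives was not measured.

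**Figure D2:**
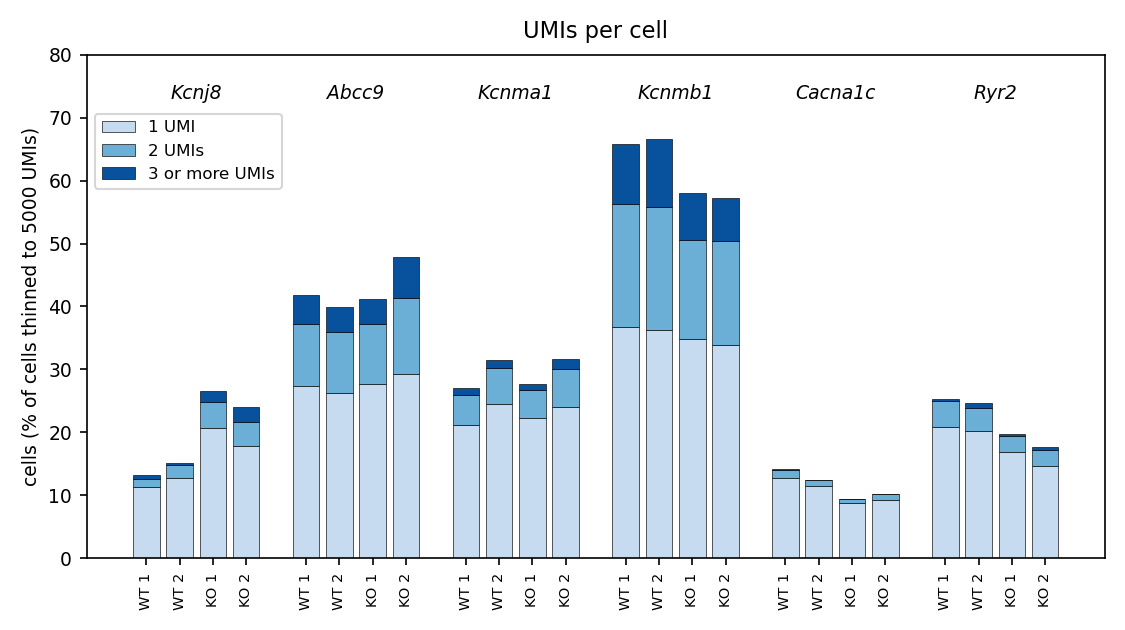
Share of cells (%, cells thinned to 5000 UMIs) with 1, 2 and 3 or more UMIs of 6 channel genes in each library. For Kcnj8 the shaded bars reach 13.2% and 15.1% in WT and 26.5% and 24.0% in KO, and for Kcnmb1 65.9% and 66.7% against 58.0% and 57.3%.

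Most positive cells held a single UMI. For Kcnj8, 11.3% and 12.8% of WT cells and 20.6% and 17.7% of KO cells had exactly 1, and 0.582%, 0.322%, 1.68% and 2.42% had 3 or more in WT 1, WT 2, KO 1 and KO 2. The higher KO level was thus seen both in the share of positive cells and in the share with several UMIs. The variance of Kcnj8 UMIs divided by their mean, which is 1 for counts scattered at random, was 1.30 and 1.19 in WT and 1.31 and 2.02 in KO. KO 2 stood apart in this measure. For Abcc9 it was 1.32 to 1.47, and for Kcnmb1 1.05 to 1.10, in the 4 libraries.

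Rgs5 encodes a regulator of G protein signalling that is abundant in pericytes and in some arterial smooth muscle. It stood at 225 and 344 CPM in the WT libraries and 110 and 256 CPM in the KO libraries (log2 difference -0.64, adjusted p = 0.231). Cells with at least 5 Rgs5 UMIs after thinning to 5000 are called Rgs5-high, which is a range and not a cell type. They were 161 of 2232 cells in WT 1 (7.21%), 325 of 3103 in WT 2 (10.5%), 142 of 4102 in KO 1 (3.46%) and 311 of 3353 in KO 2 (9.28%). Of cells near the threshold, 34, 58, 55 and 74 had 4 UMIs and 25, 37, 29 and 45 had 5. Their median UMI counts before thinning were 12301 to 15113, and 14134 to 15800 in the other cells.

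Rgs5-high cells also differed in markers. All 9 smooth muscle markers were lower in them, with sums of 34547 to 39569 CPM against 52146 to 60849 CPM in the other cells. The fibroblast list summed to 979 to 1781 against 435 to 614 CPM, with 5 of 8 tested markers higher, and Mfap5 gave 75.4% of it. The pericyte list summed to 503 to 839 against 594 to 1015 CPM, with Higd1b, Vtn and Atp13a5 at 0 in both classes. Its markers went both ways, with 3 of 7 tested called higher and 4 lower. The endothelial list summed to 53.2 to 60.9 against 50.8 to 60.5 CPM, with 2 of 7 tested higher and 2 lower. The Schwann cell and neuron list summed to 753 to 1017 against 516 to 753 CPM, with 1 of 6 higher and 1 lower. Cells with UMIs of at least 3 genes of another cell type's list, pericytes aside, were more frequent among Rgs5-high cells. They were 57 of 161 Rgs5-high cells in WT 1, 91 of 325 in WT 2, 32 of 142 in KO 1 and 79 of 311 in KO 2. Among the other cells they were 271 of 2071, 362 of 2778, 403 of 3960 and 324 of 3042. Without these cells 7 of the 8 tested members were called between the classes, all but Kcnmb1. The part of these markers in the differences below was not tested.

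All 8 tested members were called between Rgs5-high and other cells, Kcnj8, Abcc9, Kcnma1, Piezo1 and Piezo2 higher and Kcnmb1, Cacna1c and Ryr2 lower. After TMM scaling, each had the same direction in all 4 libraries. Without this scaling, Kcnmb1 was not lower in Rgs5-high cells of WT 1, WT 2 and KO 1. These cells gave 7.48%, 9.92% and 3.11% of Kcnmb1 UMIs there, against 7.13%, 9.77% and 3.08% of all UMIs. Ryr2 was not lower in KO 1 (3.32%). Of all 13845 genes tested, 24.5% were called, 11.3% higher and 13.2% lower. The fit used 8 sums, 1 for each class and library, with the library as a term, and Rgs5 itself is no finding. Without the library term 4 of the 8 were called, and 1415 genes in place of 3386.

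Kcnj8 stood in Rgs5-high and other cells at 72.3 and 32.6 CPM in WT 1, 79.4 and 30.5 in WT 2, 163 and 67.8 in KO 1, and 191 and 54.8 in KO 2. It was more than doubled in Rgs5-high cells of every library (log2 difference 1.44, SE 0.09, adjusted p = 6.3e-08). Abcc9 was higher by less, at 153 to 216 CPM against 117 to 150 CPM (0.41, SE 0.06, adjusted p = 0.000116). Kcnma1 stood at 75.5 to 128 against 71.8 to 81.1 CPM (0.35, SE 0.08, adjusted p = 0.00646). In WT 1 the Kcnma1 levels were nearly equal, 75.5 and 74.5 CPM. In the WT libraries alone its adjusted p was 0.133. Kcnmb1 stood at 159 to 224 against 192 to 237 CPM, a small difference (-0.16, SE 0.05, adjusted p = 0.0484). That call was lost in 11 of 16 other settings.

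Piezo1 stood in Rgs5-high cells at 19.7, 23.8, 22.2 and 27.1 CPM in the order WT 1, WT 2, KO 1, KO 2, and in other cells at 5.62, 4.90, 6.55 and 9.67 CPM. Each value in Rgs5-high cells was above all 4 values in the other cells (1.83, SE 0.14, adjusted p = 4.3e-07). Cacna1c stood at 21.2, 17.1, 10.8 and 13.6 CPM in Rgs5-high cells and at 30.9, 29.2, 22.4 and 25.6 CPM in the others. It was lower in Rgs5-high cells of each library (-0.79, SE 0.10, adjusted p = 5.4e-05). Ryr2 stood at 33.3 to 51.1 against 44.2 to 69.4 CPM (-0.41, SE 0.08, adjusted p = 0.00266). In the KO libraries alone its adjusted p was 0.0643.

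Piezo2 stood at 16.5 and 23.5 CPM in Rgs5-high cells of WT, and at 22.7 and 20.8 CPM in those of KO. In the other cells it stood at 4.73 and 6.23 CPM in the WT libraries and 1.47 and 1.14 CPM in the KO libraries. In Rgs5-high cells the genotypes overlapped, and in the other cells both KO values were below both WT values. Over all libraries the class difference was 2.80 on the log2 scale (SE 0.34, adjusted p = 2.9e-05). It was 1.87 (SE 0.19) in WT and 4.07 (SE 0.23) in KO, and the difference between these was 2.20 (SE 0.29, adjusted p = 3.6e-05).

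**Figure D3:**
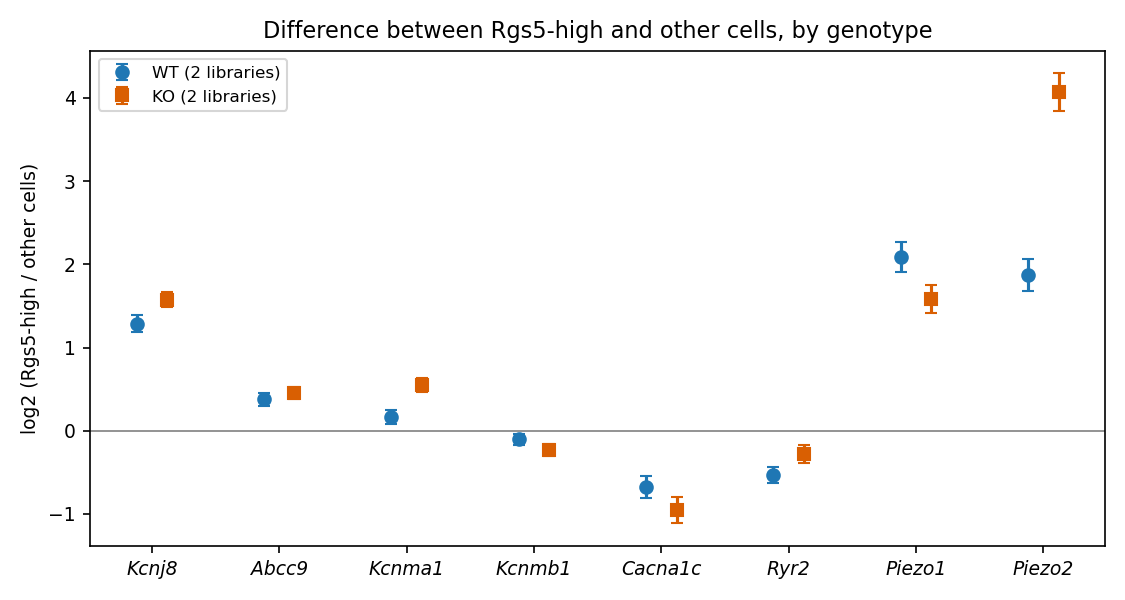
Log2 difference between Rgs5-high and other cells in WT (circles) and KO (squares) for the 8 tested members, from the fit on 8 sums with 2 libraries per genotype. Bars are 1 SE. Piezo2 is at 1.87 in WT and 4.07 in KO, and it alone passed the test of the difference between genotypes.

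That test asked whether the class difference itself differed between genotypes, and 1 of the 8 members was called, Piezo2. Among the 13845 genes 1.18% were called, 0.397% with a larger value in KO and 0.787% with a smaller one. Kcnma1 came next among members, at 0.16 in WT and 0.55 in KO (difference 0.39, SE 0.12, adjusted p = 0.125). Single libraries move this test: without KO 1, Kcnma1 (0.49, adjusted p = 0.0123) and Kcnj8 (0.52, adjusted p = 0.00621) were also called, and without WT 2, Kcnma1 (0.53, adjusted p = 0.0449). Piezo2 ranged from 2.06 to 2.31 when each library was left out.

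Within the cells that were not Rgs5-high, a fit of its own called Piezo2 lower in KO (log2 difference -2.09, SE 0.21, adjusted p = 0.000159). Within Rgs5-high cells the difference was 0.05 (SE 0.21, adjusted p = 0.934). Kcnj8 rose in both, by 0.93 (SE 0.10, adjusted p = 0.000276) in the other cells and by 1.23 (SE 0.12, adjusted p = 1.7e-05) in Rgs5-high cells. Kcnmb1 fell in both, with differences of -0.31 (adjusted p = 0.00619) and -0.40 (adjusted p = 0.0300). Ryr2 and Cacna1c were lower in the other cells (-0.55, adjusted p = 0.00123, and -0.36, adjusted p = 0.0188). In Rgs5-high cells their values were -0.29 (adjusted p = 0.406) and -0.57 (adjusted p = 0.173). In the other cells 22.6% of 14229 genes were called, 10.4% higher and 12.2% lower, and in the fewer Rgs5-high cells 8.05% of 11124, 3.18% higher and 4.86% lower.

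Rgs5-high cells gave 22.6% and 31.5% of all Piezo2 UMIs in WT, and 35.8% and 66.7% in KO, while they gave 7.13%, 9.77%, 3.08% and 8.55% of the UMIs of all genes in WT 1, WT 2, KO 1 and KO 2. Piezo1 UMIs came from them at 22.6%, 37.2%, 10.9% and 23.5%, and Kcnj8 UMIs at 15.7%, 24.1%, 7.996% and 27.7%. For Cacna1c the shares were 5.42%, 6.68%, 1.72% and 5.48%, each below the share of all UMIs. After thinning, a Piezo2 UMI was seen in 6.21%, 11.1%, 7.04% and 8.04% of Rgs5-high cells. In the other cells it was seen in 2.37% and 2.20% in WT and 0.808% and 0.559% in KO.

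Cells were also split by Rgs5 UMIs after thinning into 0, 1, 2 to 4, 5 to 9, and 10 or more, with CPM taken from the total of each class. From the lowest to the highest class Kcnj8 went from 29.4 to 98.4 CPM in WT 1, from 26.5 to 118 in WT 2, from 58.1 to 218 in KO 1 and from 43.4 to 261 in KO 2. KO cells without Rgs5 held more Kcnj8 than WT cells without it. Piezo2 in cells with no Rgs5 UMI stood at 3.17 and 5.57 CPM in WT and at 0.743 and 0.501 in KO, the last from 35 and 18 UMIs. In the class of 5 to 9 it stood at 16.7 and 16.1 in WT and 14.8 and 16.7 in KO. The class of 10 or more held 43 cells in KO 1, with 25 Piezo2 UMIs. Cacna1c in that class stood at 18.9, 16.6, 7.65 and 13.05 CPM, against 29.8, 27.6, 20.8 and 25.2 in cells with no Rgs5 UMI.

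**Figure D4:**
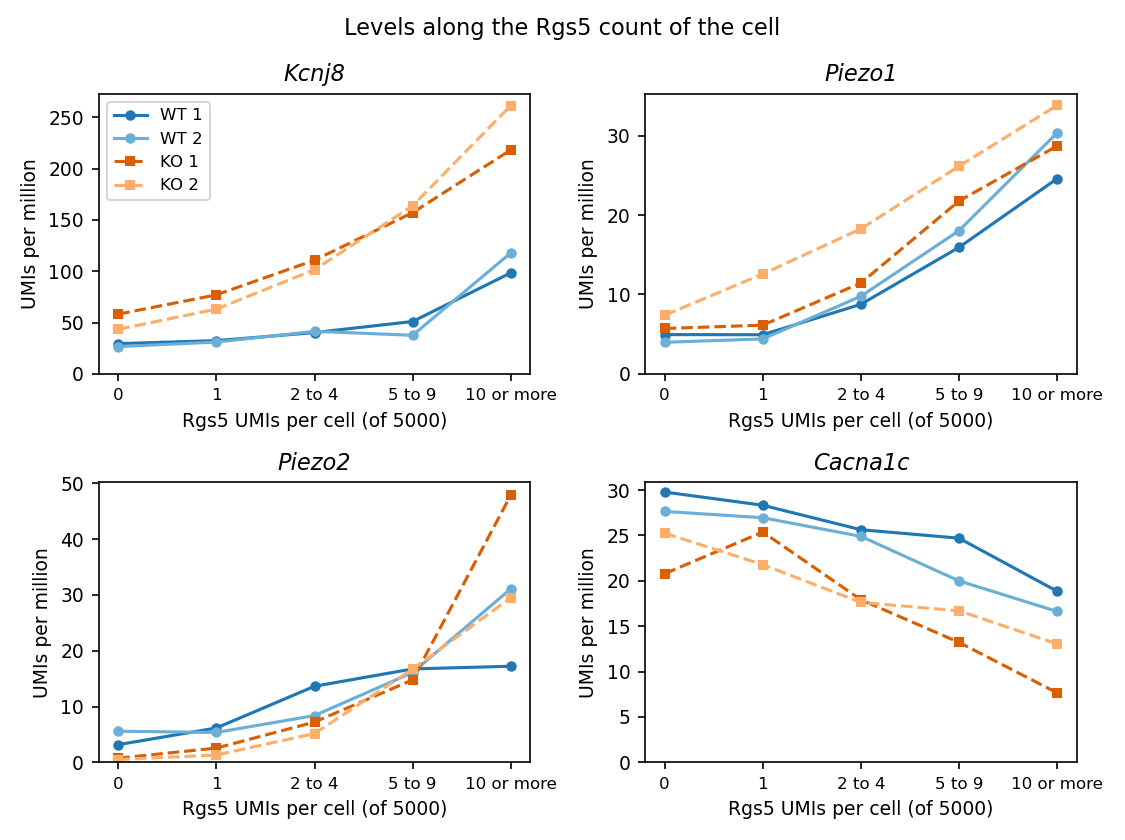
CPM of Kcnj8, Piezo1, Piezo2 and Cacna1c in cells grouped by their Rgs5 UMIs (of 5000), in the 2 WT (solid) and 2 KO libraries (dashed). Kcnj8 lies higher in KO in each class, and Piezo2 meets between genotypes at 5 to 9 Rgs5 UMIs, at 14.8 to 16.7 CPM.

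Other channel genes were read from 6 lists. Of 23 tested potassium channel genes, 4 were called higher and 5 lower in KO, with a median log2 difference of 0.18 against -0.00 for all genes. Kcnk3, the acid-sensitive two-pore channel TASK1, rose from 8.03 ± 1.71 to 29.9 ± 1.88 CPM (SD, n = 2; 1.88, adjusted p = 8.0e-05). Kcna2, a voltage-gated channel, rose from 4.13 ± 0.568 to 12.7 ± 1.25 CPM (1.62, adjusted p = 0.000159). Kcnh2, the channel of the rapid delayed rectifier current, fell from 47.2 ± 2.94 to 28.4 ± 4.83 CPM (-0.73, adjusted p = 0.00357). Potassium channels thus moved both ways. Between the Rgs5 classes 8 of 24 were higher and 7 lower (median 0.44 against 0.01 for all genes), among them Kcnc4 (1.504, adjusted p = 3.8e-08), Kcnk3 (1.69, adjusted p = 1.8e-07) and Kcnj15 (0.77, adjusted p = 6.9e-07), all higher in Rgs5-high cells.

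Of 15 voltage-gated calcium channel genes, 3 were higher and 4 lower in KO (median -0.11). Gem and Rrad, small GTPases that inhibit these channels, fell from 120 ± 13.9 to 70.5 ± 4.73 CPM (-0.77, adjusted p = 0.00101) and from 242 ± 7.14 to 180 ± 6.39 CPM (-0.43, adjusted p = 0.00272). The auxiliary subunit Cacna2d1 fell from 144 ± 4.60 to 102 ± 0.241 CPM (-0.50, adjusted p = 0.00127). The 3 called higher, named here after their values were seen, included Rem1, an inhibitor of the same GTPase family, which rose from 8.05 ± 0.396 to 14.4 ± 3.14 CPM (0.83, adjusted p = 0.00682). The others were the auxiliary subunits Cacnb3 (0.41, adjusted p = 0.00937) and Cacng4 (1.28, adjusted p = 0.00368). Inhibitors and auxiliary subunits were thus called in both directions. In Rgs5-high cells 7 of 14 were higher and 2 lower (median 0.43). Cacna1d, another L-type pore, was higher there, at 107 ± 36.6 against 48.3 ± 9.69 CPM (SD, n = 4; 1.13, adjusted p = 1.1e-07), in contrast to Cacna1c, and so were Rem1 (1.91, adjusted p = 1.1e-08) and Cacna2d3 (2.04, adjusted p = 4.1e-08).

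Of 30 calcium store and clearance genes, 4 were higher and 4 lower in KO (median 0.01). Casq1, a calcium-binding protein of the store, fell from 28.9 ± 4.09 to 13.8 ± 1.48 CPM (-1.06, adjusted p = 0.000703). Jph2, which holds the store close to the surface membrane, fell from 162 ± 16.1 to 111 ± 3.55 CPM (-0.54, adjusted p = 0.00268). Slc8a1, the sodium-calcium exchanger, rose from 67.3 ± 1.70 to 95.2 ± 2.79 CPM (0.50, adjusted p = 0.00149). Casq1 and Jph2 moved with Ryr2, and Slc8a1 the other way. In Rgs5-high cells 9 were higher and 9 lower (median 0.02). Casq2, the other calsequestrin, stood at 7.78 ± 2.58 against 0.536 ± 0.164 CPM (SD, n = 4; 3.90, adjusted p = 1.4e-06), a level in the other cells so low that it passed the expression filter through Rgs5-high cells, while Atp2b4, a calcium pump (-0.59, adjusted p = 2.5e-05), and Fkbp1a, which binds ryanodine receptors (-0.41, adjusted p = 3.5e-05), were lower.

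Of 18 TRP, mechanosensitive and acid-sensing channel genes, 1 was higher and 3 lower in KO (median 0.00). Pkd1, polycystin 1, fell from 178 ± 6.30 to 104 ± 8.55 CPM (-0.78, adjusted p = 0.000367), Tmc6 from 9.77 ± 0.406 to 7.12 ± 0.273 CPM (-0.46, adjusted p = 0.0176), and Trpm3 rose from 2.93 ± 0.0847 to 4.63 ± 0.329 CPM (0.66, adjusted p = 0.0169). In Rgs5-high cells 1 was higher and 3 lower (median -0.00). Those named by p were Pkd1 (0.41, adjusted p = 4.2e-05), higher, and Trpv2 (-0.84, adjusted p = 4.5e-05) and P2rx1 (-2.51, adjusted p = 1.8e-06), an ATP-gated channel, both lower. Piezo1 and Piezo2 were thus higher in the cells where Trpv2 and P2rx1 were lower.

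**Figure D5:**
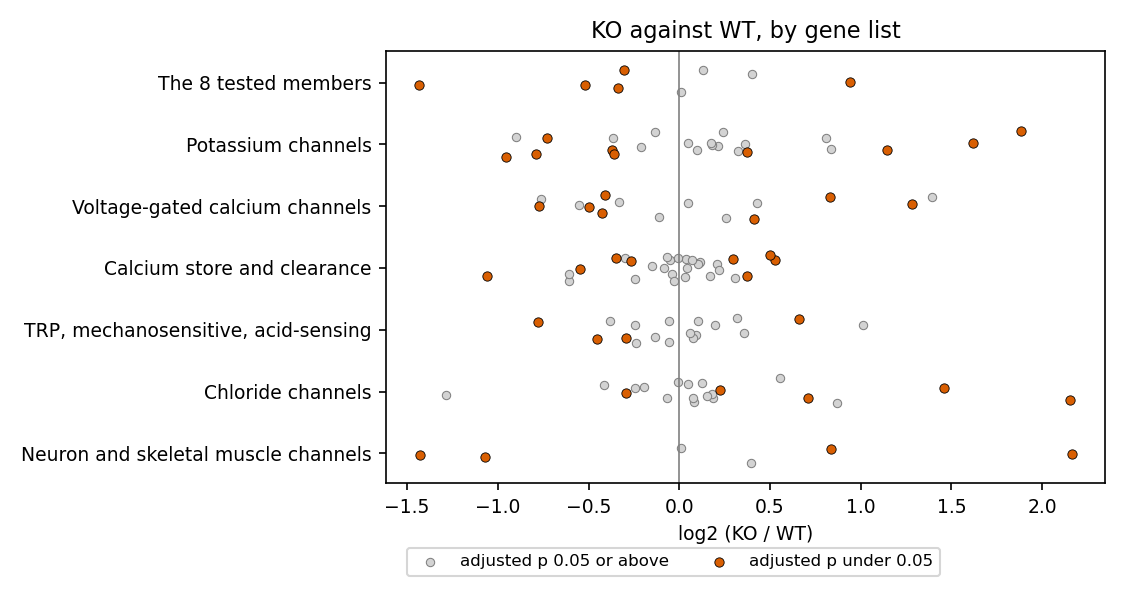
Log2 difference between KO and WT of each tested gene in 7 groups, the 8 tested members and 6 lists of other channel genes. Orange points are called at an adjusted p under 0.05; they lie on both sides of 0 in every group, such as 4 higher and 5 lower among 23 potassium channels.

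The genes whose levels followed each member most closely were found over 20 sums, 4 libraries by 5 Rgs5 classes, among genes averaging 20 CPM or more, by Pearson's r of log2(CPM + 1). The sums share libraries and the Rgs5 grading, so r is a description. Kcnj8 was closest to Vgll4 (r = 0.97), Gldn (0.97) and Tcn2 (0.96), and stood at 0.86 with Abcc9 and -0.89 with Cacna1c. Abcc9 was closest to Foxo3, Auh and Hivep2 (0.92 to 0.93), and Kcnma1 to Ctdspl (0.95), Mrvi1 (0.94) and Wnk1 (0.94). Kcnmb1 was closest to Mfap4 (0.94), Synpo (0.93) and Itgb5 (0.93), with -0.36 to Kcnma1. Cacna1c was closest to Ralgapa2 (0.96), Pon3 and Perp (0.94), and Ryr2 to Vmp1 (0.92), Grb14 (0.89) and Smco4 (0.87). Piezo1 was closest to Phactr1 (0.98), Parm1 and Olfml2b (0.97), and Piezo2 to Cd302 (0.96), Itm2b (0.95) and Scarf2 (0.94).

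In single cells such relations were weak. Between Kcnj8 and Abcc9, r over cells ran from 0.0662 to 0.145 in the 4 libraries, and cells with both were 1.14 to 1.20 times as many as their shares would give. For Kcnma1 and Kcnmb1 r ran from 0.00234 to 0.0255. With most cells at 0 or 1 UMI, such values say little about which cells hold both subunits.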

How the data were processed

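Cells were 3′ profiled with Chromium v3.1 chemistry per the labels. The deposited matrices hold raw UMI counts per gene and barcode, which the authors made in Cell Ranger 5.0.1, as the deposited file headers say; mm10 and Seurat 4.0 are named, without a role, per the submitters' processing notes. The members and lists were chosen with earlier results of these data known. The 13468 cells kept had 1000 or more UMIs, 500 or more genes and a mitochondrial share of 10% or less. No doublets were removed; an alternative left out the 5% of cells with most UMIs. Counts were summed per library, or per library and Rgs5 class, scaled by TMM, filtered with filterByExpr and tested with edgeR 4.0.16 (R 4.3.3) by the quasi-likelihood test, with Benjamini-Hochberg adjustment over all tested genes. Differences are log2, with SE taken as the difference divided by the root of F. Rgs5 classes used cells of at least 5000 UMIs, each thinned to 5000, and the 2 classes of a library were paired by the library term because they come from the same cells' preparation. Libraries of 1 genotype differed by more than counting error (chi-square per degree of freedom 13.3 in WT and 15.0 in KO), and the biological coefficient of variation was 7.84%.

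Named were all members, Rgs5, Tgfbr1, Tgfbr2, in each list the 3 genes with the smallest p in either comparison, and the 3 genes most like each member. A gene that this rule names is not reported here. Dcp1b, Ctu2 and Kcnip1 were added because they overlap members, and Rem1, Cacnb3 and Cacng4 to complete a count. The list names Irag1, Trpp1 and Swell1 are not symbols of the matrices and were not counted. Irag1 stands there as Mrvi1, which was not counted in its list, and Swell1 as Lrrc8a, which the list also holds, as it does the polycystins Pkd1 and Pkd2. Positions are from GENCODE M21 (GRCm38), and promoters from a RefSeq table (GRCm38.p6). On simulated counts with known changes, the KO test recovered 57.4%, 72.5% and 87.3% of genes changed 1.5, 2 and 4 fold among 14300, and the Rgs5 test 61.2%, 80% and 82.1% among 13353. Alternatives were RLE scaling, DESeq2 1.42.0, limma-voom (limma 3.58.1), other filters on genes and cells, other Rgs5 thresholds and thinning depths, and leaving out each library.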

Additional observations from a re-analysis of the deposited data

Results flagged for a closer look

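Among the members and the list genes named by smallest p, 2 genes differed between genotypes in how far Rgs5-high cells stood from the others. The edgeR test of that difference was used, and the remaining list genes were not searched. Of all 13845 genes tested, 1.18% were called by it. For Piezo2 it was 2.20 on the log2 scale (SE 0.29, adjusted p = 3.6e-05), with 1.87 in WT and 4.07 in KO. For Rrad it was 0.41 (SE 0.10, adjusted p = 0.0450), with -0.55 in WT and -0.13 in KO, where Rrad stood over the 4 libraries at 179 ± 9.84 CPM in Rgs5-high cells and 227 ± 39.5 CPM in others (SD, n = 4).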

How the results depend on the processing

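Of 422 alternative values, 376 were labelled the same, 20 lost a call, 6 gained one, 12 changed sign and 8 counts moved. For log2 differences, the same means the same direction and side of the threshold. For counts of genes it means only a value near the main one, such as 4085 without the low-count filter against 2938. Depth limits Piezo1, Piezo2 and Trpc6 most, and Rgs5-high cells were 939 of 12790.

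Genes called between KO and WT were 2938, 1844 to 2428 with 1 library left out, and 895 in Rgs5-high cells, an alternative chosen after seeing the data. Members called were 5, 4 to 6 with 1 library left out and 2 in Rgs5-high cells, and list genes called were 37, 25 to 32 and 16. Between Rgs5 classes 3386 genes were called, 2356 to 3266 with 1 library left out, and without the library as block 1415, with 4 members. For the genotype by class test, members called were 1 to 3 with 1 library left out.

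Sign changes between KO and WT were those of Kcnma1 (-0.046 without WT 1, -0.12 to 0.12 over the libraries left out, -0.0043 at a mitochondrial share of at most 5% and -0.037 outside Rgs5-high cells), Abcc9 (-0.035 without KO 2 to 0.28 without KO 1) and Piezo2 (0.050 in Rgs5-high cells). The unthinned share of cells with Kcnma1 differed by -0.14 percentage points. In the genotype by class test they were Abcc9 (-0.084 at 10 Rgs5 UMIs, and -0.031 to 0.19 over the libraries left out), Kcnmb1 (0.011 at 10 Rgs5 UMIs) and Kcnj8 (-0.030 without KO 2 to 0.52 without KO 1). Their causes were not tested. Over its alternatives the adjusted p of Cacna1c between KO and WT ran from 0.00209 to 0.173, of Piezo1 from 0.00687 to 0.945, of Abcc9 from 0.0460 to 0.828, and of Kcnmb1 between Rgs5 classes from 0.0189 to 0.558. In the genotype by class test it ran from 0.00621 to 0.999 for Kcnj8 and from 0.0123 to 0.904 for Kcnma1.

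With the replicate number as a block, 3274 genes and 5 members were called between KO and WT. Same-numbered libraries did not deviate together (correlation -0.003 over 5743 genes), so the numbers only name the libraries.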

Other observations

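A list of chloride channel genes and a list of channel genes of neurons and skeletal muscle were read in the same fits. Of 20 tested chloride channel genes, 4 were called higher and 1 lower in KO (median log2 difference 0.10). Clic4, which gave 54.8% of the list's CPM, rose from 609 ± 7.90 to 710 ± 18.3 CPM (SD, n = 2; 0.22, adjusted p = 0.0279 by edgeR), Clcn4 fell from 60.3 ± 0.549 to 49.3 ± 0.957 CPM (-0.29, adjusted p = 0.0169), and Clic5 rose from 0.163 ± 0.0279 to 0.746 ± 0.0647 CPM (2.15, adjusted p = 0.00495). Clic5 passed the expression filter only through the KO libraries, where it was high. Between Rgs5 classes 5 of 19 were higher and 3 lower. Ano1, the calcium-activated chloride channel, was higher in Rgs5-high cells at 101 ± 7.78 against 63.6 ± 6.50 CPM (SD, n = 4; 0.67, adjusted p = 1.5e-06), and Clic4 (-0.41, adjusted p = 2.2e-05) and Clic1 (-0.42, adjusted p = 3.7e-05) were lower.

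Of the 32 channel genes of neurons and skeletal muscle, 6 passed the expression filter. The list summed to 30.7 to 35.5 CPM per library, of which Scn2a gave 50.1%. Gria1, a glutamate receptor subunit, rose in KO from 7.24 ± 0.265 to 12.9 ± 0.877 CPM (0.84, adjusted p = 0.00105), and Chrna1, the muscle acetylcholine receptor subunit, fell from 2.26 ± 0.968 to 0.854 ± 0.112 CPM (-1.43, adjusted p = 0.0165). In Rgs5-high cells Kcnq3 was higher (0.98, adjusted p = 0.0119) and Gria1 was lower (-0.99, adjusted p = 0.0120).

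Cells with at least 5 Kcnj8 UMIs after thinning numbered 0 in WT 1, 1 in WT 2, 5 in KO 1 and 16 in KO 2, of which 0, 1, 1 and 9 were Rgs5-high, and the highest count was 17 UMIs in a cell of KO 2. Abcc9 was seen in 10 of the 16 cells of KO 2 and in 3 of the 5 of KO 1. These cells were chosen by their Kcnj8 count and are given as values only.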
